A study of Mus musculus with 9 samples.

Results

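The tumour necrosis factor (TNF) superfamily is a set of small signalling proteins and the surface receptors that bind them. Its members were taken here by gene symbol: Tnf and every symbol of the form Tnfsf followed by a number as ligands, and every symbol of the form Tnfrsf followed by a number as receptors. This gave 33 of the 54146 genes in the count table, namely 12 ligands, 20 receptors and 1 antisense RNA, Tnfsf13os. RNA was sequenced from eosinophils of adult mouse quadriceps muscle, sorted as live CD45+ Siglec-F+ cells without CD11c, Gr1 or MHC class II on their surface. The 9 libraries form 3 groups of 3. The mdx_IL5Tg group combines the mdx background, a dystrophin-deficient strain that models Duchenne muscular dystrophy, with an interleukin-5 transgene. The mdx group has the dystrophic background without the transgene, and the IL5Tg group is named for the transgene alone. The groups follow the sample titles, because the label for the strain gives mdx even for the IL5Tg samples. The sources used here name no promoter for the transgene, no age in weeks and no sex. No group lacks both the transgene and the mdx background, so the 3 groups were compared pairwise. The design text calls the replicates biological.

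TNF superfamily ligands are mostly membrane proteins that act as trimers, either on a neighbouring cell or after being cut from the surface. A bound receptor recruits TRAF adaptor proteins, which lead to NF-kB and MAP kinase signalling, or, where it has a death domain, adaptors that can start caspase-driven cell death. Several receptors, such as those encoded by Tnfrsf18, Tnfrsf9 and Tnfrsf4, are best known as costimulators of lymphocytes. Others are decoys that bind a ligand and pass on no signal. Interleukin-5 is the main growth and survival cytokine of eosinophils, and eosinophils enter dystrophic muscle.

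Total counts per library ranged from 26752780 to 58368283, and the 33 members held 0.0739% to 0.0877% of them. Il5, the gene of the transgene, was at 664 to 724 CPM (counts scaled to a common library size) in mdx_IL5Tg and 317 to 523 CPM in IL5Tg, against 0.265 to 0.402 CPM in mdx. Siglecf, which encodes the marker of the sort, was at 449 to 584 CPM in mdx_IL5Tg, 129 to 177 CPM in mdx and 329.9 to 394 CPM in IL5Tg, and the eotaxin receptor gene Ccr3 was at 809 CPM or more in every library. Transcripts of the eosinophil granule genes Prg2, Epx, Ear1 and Ear2 summed to 818 to 1094 CPM in mdx_IL5Tg, 106 to 754 CPM in mdx and 2767 to 11684 CPM in IL5Tg. IL5Tg S7 holds the highest of these sums, and it and mdx S5 had been named as standing apart in an earlier account of these data, so results that rest on them are also given without both. In bulk RNA from sorted cells, fewer cells of a type and less RNA per cell cannot be told apart.

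Levels were compared between members as CPM per kilobase of annotated exon. On this scale the ligands were dominated by Tnfsf14, which encodes LIGHT, a costimulatory ligand of the receptors encoded by Tnfrsf14 and Ltbr. Tnfsf14 made up 87.8% ± 0.269 of the summed ligand level in mdx_IL5Tg, 80.3% ± 5.71 in mdx and 84.8% ± 1.14 in IL5Tg (SD, n = 3 each). Tnf itself followed with 9.55% ± 0.914 in mdx_IL5Tg, 12.6% ± 4.74 in mdx and 11.5% ± 0.451 in IL5Tg. The remaining 10 ligands made up the small rest, and the third in each group was Tnfsf12 with a mean of 1.45 CPM per kilobase in mdx_IL5Tg, 3.84 in mdx and 1.48 in IL5Tg. Among the receptors, Tnfrsf1b, which encodes the TNF receptor without a death domain, held 49.1% ± 1.85 of the summed level in mdx_IL5Tg, 52.8% ± 2.80 in mdx and 38.9% ± 3.46 in IL5Tg. Tnfrsf1a, which encodes the TNF receptor with a death domain, came next with 14.8% ± 1.55 in mdx_IL5Tg, 17.7% ± 1.40 in mdx and 16.1% ± 2.14 in IL5Tg, and Tnfrsf21 was the third in every group. Further down, the order differed by group: Tnfrsf18 and Tnfrsf26 followed with 15.2 and 15.1 CPM per kilobase in mdx_IL5Tg, level with Tnfrsf21 at 15.4 within their SDs, while in mdx they had 2.33 and 3.93 CPM per kilobase and stood below Tnfrsf12a, Tnfrsf14 and Tnfrsf10b. The summed receptor level was 218 to 240.05 CPM per kilobase in mdx_IL5Tg, 161 to 169 in mdx and 170.1 to 176 in IL5Tg, and the summed ligand level 116 to 127 in mdx_IL5Tg, 87.6 to 105 in mdx and 77.2 to 102 in IL5Tg. For both sums, every mdx_IL5Tg library lay above every other library. This order rests in part on the normalisation (TMM) factors, which were 0.867 to 0.918 in mdx_IL5Tg and 1.02 to 1.15 in mdx. Scaled by library totals alone, the ligand sum of mdx_IL5Tg S2 fell just below that of mdx S5. Most of each ligand sum is Tnfsf14.

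**Figure D1:**
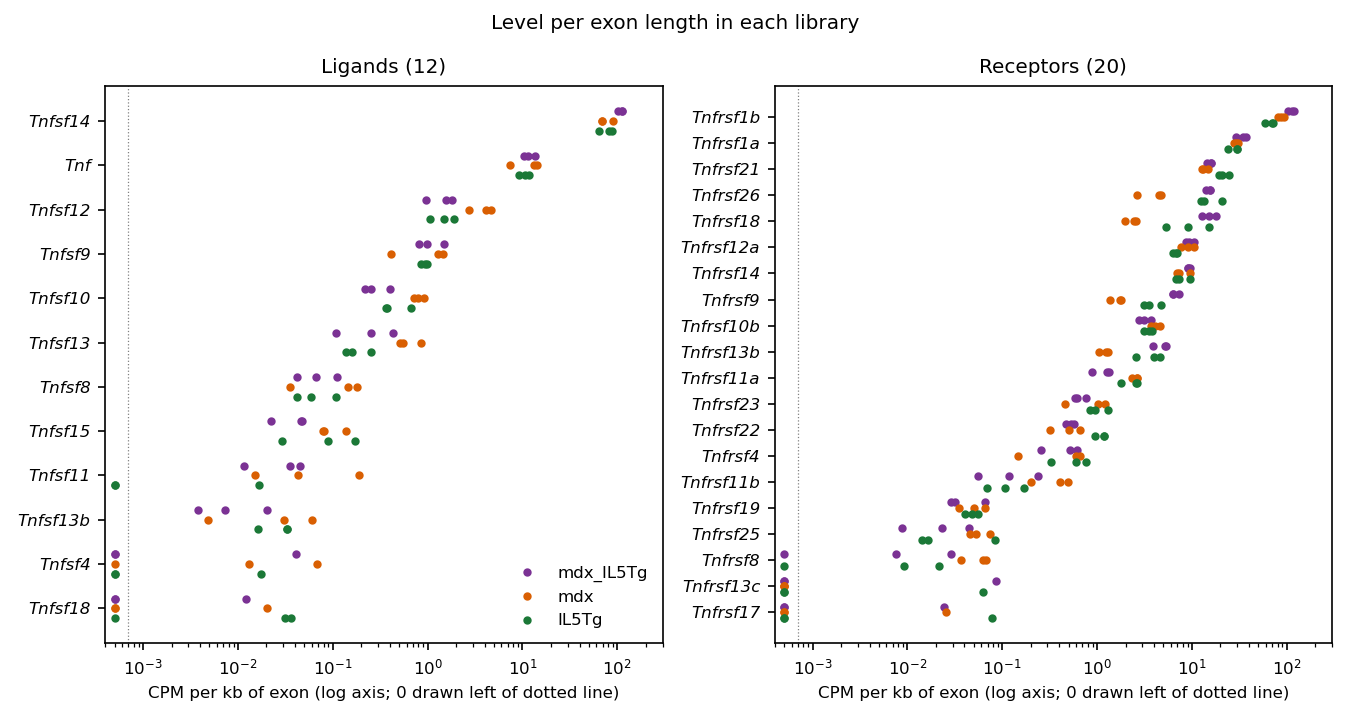
Level of each TNF superfamily ligand and receptor in CPM per kilobase of exon, on a log axis, with 1 point per library and the groups in the order mdx_IL5Tg, mdx and IL5Tg. Tnfsf14 leads the ligands and Tnfrsf1b the receptors in every group, and Tnfrsf18, Tnfrsf26, Tnfrsf9 and Tnfrsf13b lie lowest in the mdx libraries.

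Differences were tested for each of 15886 genes with edgeR's quasi-likelihood test, and a gene is called where its p, adjusted by Benjamini-Hochberg over all of them, is under 0.05. Of the members, 8 of 12 ligands and 15 of 20 receptors had enough counts to be tested, and 4 ligands and 8 receptors were called in at least 1 comparison. In mdx_IL5Tg against mdx, which sets the transgene against its absence on the dystrophic background, 4 receptors were higher and 1 was lower, and 1 ligand was higher and 2 were lower. Over all genes tested, 10.1% were called higher and 11.5% lower in that comparison, 21.6% in all, against 33.3% of the receptors and 37.5% of the ligands. In mdx against IL5Tg, 6 receptors were lower and none higher, while 2 ligands were higher and none lower. The background there was 11.8% of genes called higher, 8.96% lower and 20.8% in all, against 40% of the tested receptors, all of those lower, and 25% of the tested ligands. In mdx_IL5Tg against IL5Tg, the dystrophic background within transgenic mice, 2 receptors were higher and 2 lower, and no ligand was called in either direction. The background was 4.35% higher, 2.87% lower and 7.22% in all, against 26.7% of the tested receptors. Each pair of these comparisons shares a group, so they are not independent, and their values are given side by side.

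**Figure D2:**
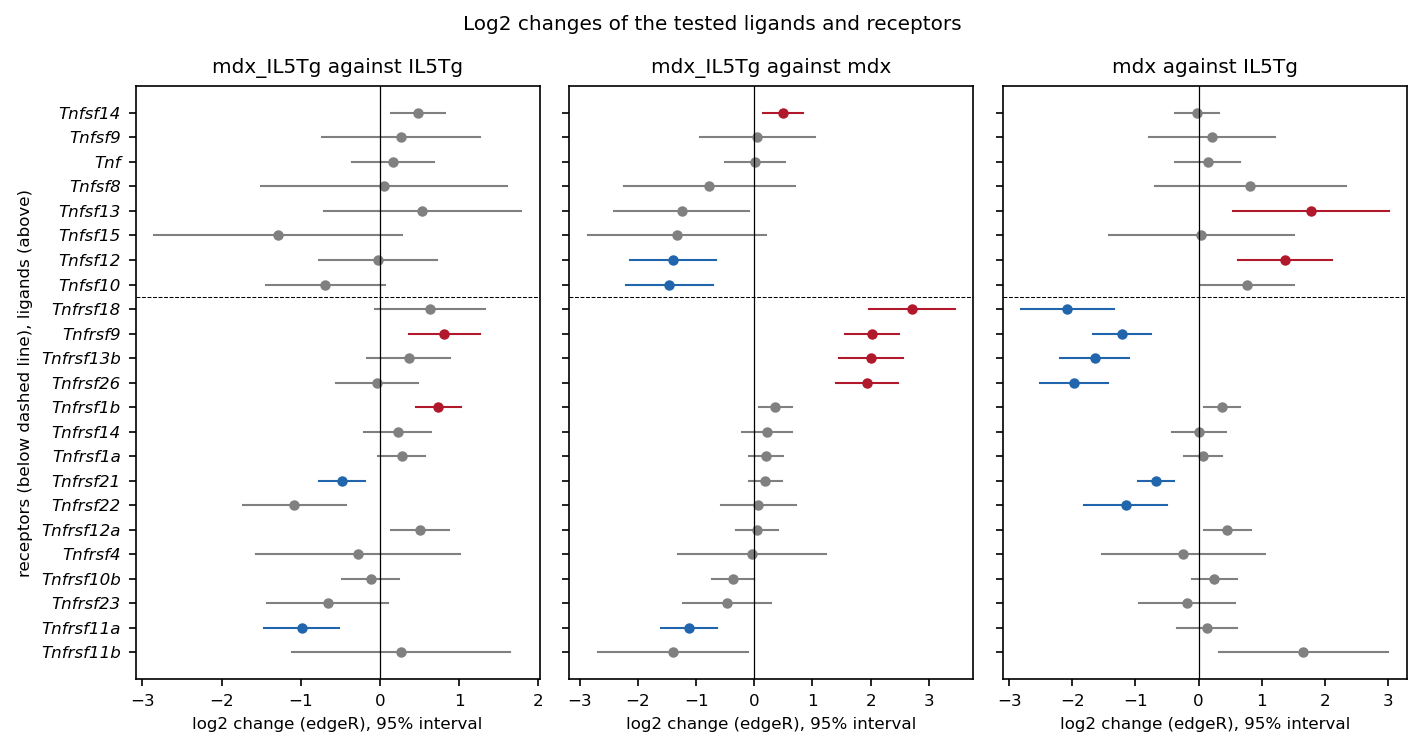
Log2 change of each tested ligand and receptor in the comparisons mdx_IL5Tg against IL5Tg, mdx_IL5Tg against mdx and mdx against IL5Tg, from left to right, with bars for the 95% confidence interval. Red marks members called higher, blue members called lower and grey members not called. Tnfrsf18 has the largest rise, a log2 change of 2.71 in mdx_IL5Tg against mdx.

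The receptors that moved most were Tnfrsf18, Tnfrsf9, Tnfrsf13b and Tnfrsf26, which were low in mdx and several-fold higher in both transgenic groups. Tnfrsf18 encodes GITR, a costimulator of T cells whose ligand is encoded by Tnfsf18. Tnfrsf9 encodes CD137, another costimulator, which binds the product of Tnfsf9. Tnfrsf13b encodes TACI, a receptor of B cells for the ligands encoded by Tnfsf13b (BAFF) and Tnfsf13 (APRIL). Tnfrsf26 is a mouse gene next to the decoy receptor genes Tnfrsf22 and Tnfrsf23. The DNA just upstream of Tnfrsf18, Tnfrsf9 and Tnfrsf13b is shown because these genes move together, and because STAT5, a factor that interleukin-5 receptors activate, binds the GAS element TTCNNNGAA. The sequences are RefSeq windows of build GRCm38.p6, 250 bases upstream of each RefSeq start, read 5′ to 3′ on the gene's strand and ended before the first exon base in GENCODE release M21. Both strands were searched for the GAS element, the AP-1 site TGANTCA, the GATA site AGATAA and the NF-kB consensus. Capitals mark a match. Both Tnfrsf9 windows lie inside the GENCODE span of the gene.
Tnfrsf18 (chr4:156026072-156026163, + strand): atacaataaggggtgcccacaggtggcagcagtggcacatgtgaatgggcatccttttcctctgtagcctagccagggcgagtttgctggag
Tnfrsf9, upstream start (chr4:150919905-150920154, + strand): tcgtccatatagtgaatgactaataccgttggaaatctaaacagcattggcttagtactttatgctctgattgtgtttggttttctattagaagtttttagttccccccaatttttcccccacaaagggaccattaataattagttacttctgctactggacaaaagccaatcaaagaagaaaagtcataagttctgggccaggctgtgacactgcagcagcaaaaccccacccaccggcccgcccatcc
Tnfrsf9, downstream start (chr4:150927749-150927917, + strand): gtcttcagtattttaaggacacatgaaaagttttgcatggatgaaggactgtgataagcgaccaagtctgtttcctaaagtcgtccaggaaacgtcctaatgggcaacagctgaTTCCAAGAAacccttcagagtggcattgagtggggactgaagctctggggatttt
Tnfrsf13b (chr11:61126505-61126754, + strand): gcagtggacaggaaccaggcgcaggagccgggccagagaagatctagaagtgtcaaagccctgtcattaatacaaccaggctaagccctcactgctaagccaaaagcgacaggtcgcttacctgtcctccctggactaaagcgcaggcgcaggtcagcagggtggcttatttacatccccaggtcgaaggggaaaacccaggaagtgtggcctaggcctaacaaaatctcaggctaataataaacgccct
The last Tnfrsf9 stretch held a GAS match at position 115, counted from its first base, and the other stretches shown held no match. The rest of the 250 bases, from the first exon base on, is not shown. There, Tnfrsf18 had a GAS match at position 152. The downstream Tnfrsf9 window had an AP-1 match at position 236 and overlapping NF-kB matches from positions 208 and 209. Whether these matches lie in exon or intron was not read. The GAS element was in 7.02% of all 32851 such windows, the AP-1 site in 6.75%, the GATA site in 9.99% and the NF-kB consensus in 3.90%. Of the 29 windows found for 25 members, 5 held the GAS element, 5 the AP-1 site, 1 the GATA site and 2 the NF-kB consensus. The GAS windows were those of Tnfrsf18, Tnfrsf9, Tnfrsf1b, Tnfrsf1a, which was not called, and Tnfrsf25, which was not tested. No window was found for Tnfrsf26. These are matches of letters, and binding was not measured.

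Tnfrsf18 (chr4:156026164-156028895, GRCm38) was at 27.1, 19.4 and 23.1 CPM in mdx_IL5Tg, 3.73, 3.88 and 3.04 CPM in mdx, and 23.0, 8.08 and 13.8 CPM in IL5Tg, in the order of libraries S1 to S3, S4 to S6 and S7 to S9. The mdx libraries lay below all 6 others, and both transgenic groups overlapped. It was 6.53-fold higher in mdx_IL5Tg than in mdx (log2 2.71, SE 0.34, adjusted p = 0.00052) and 4.22-fold lower in mdx than in IL5Tg (log2 -2.08, SE 0.33, adjusted p = 0.0019). Against IL5Tg, the mdx_IL5Tg level differed by a log2 of 0.63 (95% interval -0.06 to 1.32) and was not called. Without IL5Tg S7 and mdx S5 it was called in that comparison, with a log2 change of 1.09 and an adjusted p of 0.036. An antisense gene, Gm16008, overlaps 27.2% of its exon bases, and the strand setting of the counting is unknown here, so reads of the pair may not be told apart. Its neighbour Tnfrsf4, which encodes the costimulator OX40 and ends 9551 bp upstream of it on the same strand, was at 0.201 to 1.04 CPM in all libraries and was not called in any comparison.

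Tnfrsf9 (chr4:150914562-150946102) was at 17.3, 20.1 and 17.0 CPM in mdx_IL5Tg, 3.77, 4.85 and 4.73 CPM in mdx, and 9.57, 12.9 and 8.54 CPM in IL5Tg. No groups overlapped, and the order was mdx_IL5Tg, then IL5Tg, then mdx. It was 4.08-fold higher in mdx_IL5Tg than in mdx (log2 2.03, SE 0.21, adjusted p = 0.00016) and 2.33-fold lower in mdx than in IL5Tg (log2 -1.22, SE 0.21, adjusted p = 0.0027). Of these 4 receptors it was the one called in mdx_IL5Tg against IL5Tg, at a log2 of 0.81 (SE 0.20, adjusted p = 0.041). That last call was lost without mdx_IL5Tg S1, mdx_IL5Tg S2, mdx S6, IL5Tg S7 or IL5Tg S9, with adjusted p of 0.15, 0.11, 0.052, 0.11 and 0.11. It was also lost without IL5Tg S7 and mdx S5 together, with a log2 of 0.76 and an adjusted p of 0.056.

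Tnfrsf13b (chr11:61126755-61149372) was at 15.0, 11.1 and 14.7 CPM in mdx_IL5Tg, 3.68, 3.48 and 2.99 CPM in mdx, and 13.2, 7.37 and 11.3 CPM in IL5Tg. Again the mdx libraries lay below the other 6, and the transgenic groups overlapped. It was 4.02-fold higher in mdx_IL5Tg than in mdx (log2 2.01, SE 0.25, adjusted p = 0.00049) and 3.13-fold lower in mdx than in IL5Tg (log2 -1.65, SE 0.25, adjusted p = 0.0014). The related BAFF and APRIL receptor genes of B cells, Tnfrsf13c and Tnfrsf17, had at most 7 and 2 counts in any library and were not tested.

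Tnfrsf26 (chr7:143607659-143628722) was at 45.7, 50.1 and 50.1 CPM in mdx_IL5Tg, 15.0, 8.53 and 14.4 CPM in mdx, and 40.0, 66.6 and 43.1 CPM in IL5Tg. The mdx libraries were again the lowest, and the transgenic groups differed by a log2 of -0.04 (95% interval -0.55 to 0.48). It was 3.84-fold higher in mdx_IL5Tg than in mdx (log2 1.94, SE 0.24, adjusted p = 0.00055) and 3.94-fold lower in mdx than in IL5Tg (log2 -1.98, SE 0.24, adjusted p = 0.00046). Together the 4 receptors made up 18.2% to 18.7% of the summed receptor level in mdx_IL5Tg, 4.92% to 5.81% in mdx and 17.1% to 21.01% in IL5Tg, a description of genes grouped after their values were seen. Their calls in mdx_IL5Tg against mdx and in mdx against IL5Tg were kept under all 18 alternatives. Without IL5Tg S7 and mdx S5, the log2 changes in mdx against IL5Tg were -1.69 for Tnfrsf18, -1.34 for Tnfrsf9, -1.48 for Tnfrsf13b and -1.90 for Tnfrsf26.

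**Figure D3:**
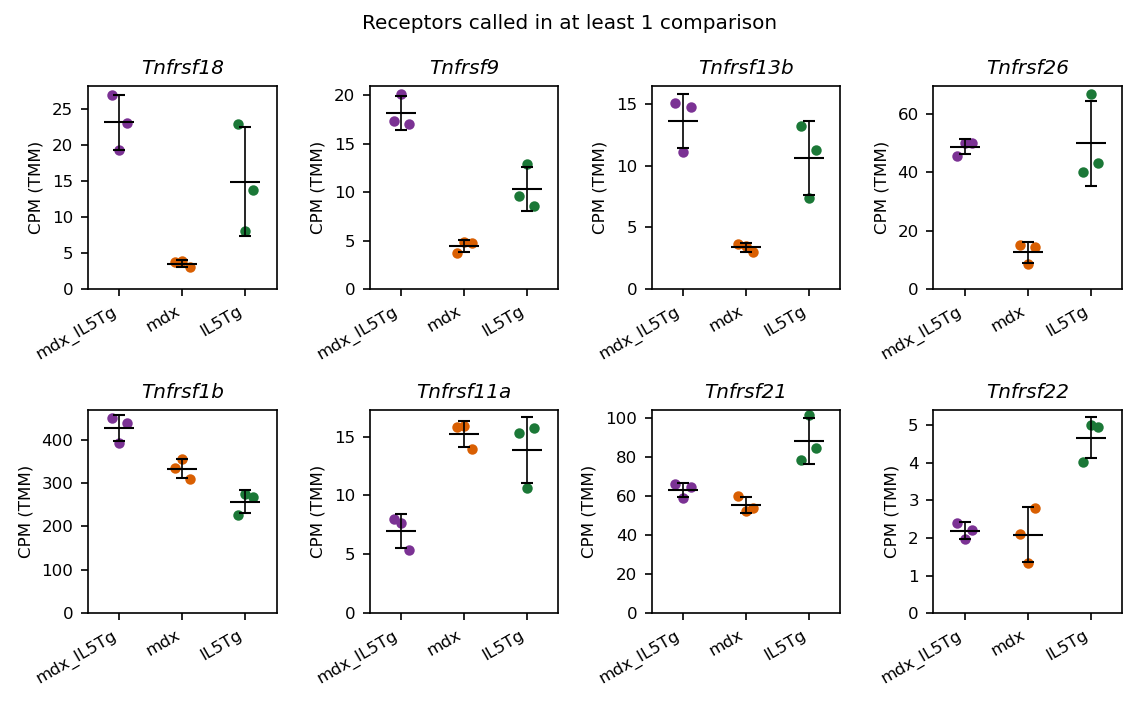
TMM-normalised CPM of each receptor called in at least 1 comparison, with 1 point per library, the groups in the order mdx_IL5Tg, mdx and IL5Tg, and bars for the mean and SD of 3 libraries. For Tnfrsf18, Tnfrsf9, Tnfrsf13b and Tnfrsf26 the mdx libraries lie below all others, while Tnfrsf1b is highest and Tnfrsf11a lowest in mdx_IL5Tg.

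Since Tnfrsf18, Tnfrsf9 and Tnfrsf13b are known from lymphocytes, lymphocyte markers were read in the same libraries. The 5 B cell genes read here (Ms4a1, Cd79a, Cd79b, Pax5 and Blk) summed to 0.574 to 0.881 CPM in mdx_IL5Tg, 0.530 to 0.712 CPM in mdx and 0.485 to 1.70 CPM in IL5Tg. The 8 listed T cell genes summed to 1.96 to 2.15 CPM in mdx_IL5Tg, 1.45 to 3.18 CPM in mdx and 2.72 to 3.49 CPM in IL5Tg. Without Cd3d they summed to 0.533 to 0.881 CPM in mdx_IL5Tg, 1.25 to 2.99 CPM in mdx and 0.447 to 0.992 CPM in IL5Tg, with Foxp3 at 0 in 4 libraries. Cd3d alone, like the 4 receptors, was lowest in mdx, with 1.08 to 1.62 CPM in mdx_IL5Tg, 0.167 to 0.193 CPM in mdx and 2.27 to 2.69 CPM in IL5Tg. The 4 listed natural killer cell genes summed to at most 0.377 CPM in any library. None of these lists had a gene at 0 in all 9 libraries. The part of T cells, B cells and natural killer cells in the 4 receptors' levels was not tested. Siglecf was also lowest in mdx, at 129 to 177 CPM. It was at 449 to 584 CPM in mdx_IL5Tg and 329.9 to 394 CPM in IL5Tg. Ccr3 overlapped between mdx and IL5Tg, at 809 to 1134 CPM and 827 to 1064 CPM. The fibroblast genes, given below, summed highest in mdx. The part of eosinophil and fibroblast RNA in the 4 receptors' levels was not tested either.

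Tnfrsf1b (chr4:145213463-145246870, minus strand) and Tnfrsf1a, the receptors of TNF, differed in how they moved. Tnfrsf1b was at 450.4, 393 and 438 CPM in mdx_IL5Tg, 334, 356 and 310.4 CPM in mdx, and 227, 275 and 269 CPM in IL5Tg. The groups formed 3 steps without overlap, highest in mdx_IL5Tg and lowest in IL5Tg. It was 1.66-fold higher in mdx_IL5Tg than in IL5Tg (log2 0.73, SE 0.13, adjusted p = 0.015), a call lost without mdx_IL5Tg S1 (log2 0.74, adjusted p = 0.078). The steps between were not called, at a log2 of 0.36 (95% interval 0.07 to 0.64) in mdx_IL5Tg against mdx and 0.38 (95% interval 0.09 to 0.66) in mdx against IL5Tg. The difference from mdx was called without mdx S5, IL5Tg S7 or IL5Tg S8 (log2 0.41, 0.45 and 0.45, adjusted p = 0.047, 0.023 and 0.041). With library totals alone it was a log2 of 0.04 (adjusted p = 0.80). Tnfrsf1a was at 95.7, 89.7 and 75.8 CPM in mdx_IL5Tg, 75.9, 71.3 and 80.2 CPM in mdx, and 77.3, 62.4 and 76.6 CPM in IL5Tg. Its groups overlapped, and its log2 differences lay between 0.07 and 0.27 with adjusted p of 0.22 or more.

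The window upstream of Tnfrsf1b, the most abundant receptor, and that of Tnfsf14, the most abundant ligand, are shown with the same marking.
Tnfrsf1b (chr4:145246871-145247120, - strand): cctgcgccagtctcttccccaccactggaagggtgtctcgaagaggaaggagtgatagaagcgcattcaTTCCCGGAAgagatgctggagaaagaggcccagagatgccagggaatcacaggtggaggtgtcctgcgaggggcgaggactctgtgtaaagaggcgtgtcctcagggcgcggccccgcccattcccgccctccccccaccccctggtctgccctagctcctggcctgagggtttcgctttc
Tnfsf14 (chr17:57194182-57194431, - strand): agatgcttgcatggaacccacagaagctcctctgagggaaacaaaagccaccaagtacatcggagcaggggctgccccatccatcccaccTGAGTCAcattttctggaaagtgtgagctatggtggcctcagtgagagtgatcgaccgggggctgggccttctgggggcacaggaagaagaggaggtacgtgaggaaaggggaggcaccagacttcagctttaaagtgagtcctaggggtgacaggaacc
The Tnfrsf1b window held a GAS match at position 70 and the Tnfsf14 window an AP-1 match at position 91.

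Tnfrsf11a (chr1:105780718-105847981), which encodes RANK, the receptor known for osteoclast formation, went the other way in mdx_IL5Tg. It was at 7.98, 7.63 and 5.35 CPM in mdx_IL5Tg, 15.8, 15.9 and 13.9 CPM in mdx, and 15.3, 10.6 and 15.7 CPM in IL5Tg. All mdx_IL5Tg libraries lay below all others, and the mdx and IL5Tg groups overlapped. It was 2.18-fold lower in mdx_IL5Tg than in mdx (log2 -1.12, SE 0.22, adjusted p = 0.0057) and 1.98-fold lower than in IL5Tg (log2 -0.99, SE 0.22, adjusted p = 0.030). The call against IL5Tg was lost without mdx_IL5Tg S1, mdx_IL5Tg S2, IL5Tg S7 or IL5Tg S9, with adjusted p of 0.11, 0.074, 0.094 and 0.090. Its ligand gene Tnfsf11 had at most 20 counts in a library, and Tnfrsf11b, which encodes osteoprotegerin, the soluble decoy of the same ligand, was at 0.157 to 1.38 CPM and was not called.

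Tnfrsf21 and Tnfrsf22 were highest in IL5Tg. Tnfrsf21 (chr17:43016555-43089189), which encodes the death-domain receptor DR6, was at 66.1, 59.3 and 64.9 CPM in mdx_IL5Tg, 60.3, 52.5 and 53.8 CPM in mdx, and 78.9, 102 and 84.9 CPM in IL5Tg. All 3 IL5Tg libraries lay above the rest. It was 1.59-fold lower in mdx than in IL5Tg (log2 -0.67, SE 0.13, adjusted p = 0.0054) and 1.40-fold lower in mdx_IL5Tg than in IL5Tg (log2 -0.48, SE 0.13, adjusted p = 0.0496). The second of these calls sat at the threshold and was lost when any 1 library other than mdx S5 was left out, with adjusted p of 0.078 to 0.20. Tnfrsf22 (chr7:143634806-143649661), a decoy receptor of TRAIL, was at 2.41, 1.96 and 2.22 CPM in mdx_IL5Tg, 2.11, 1.34 and 2.80 CPM in mdx, and 4.03, 4.997 and 4.96 CPM in IL5Tg. It was 2.23-fold lower in mdx than in IL5Tg (log2 -1.15, SE 0.30, adjusted p = 0.020), a call lost without mdx S4 or IL5Tg S9 (adjusted p = 0.051 and 0.056). In mdx_IL5Tg against IL5Tg its log2 change was -1.08 (adjusted p = 0.051, not called), and it was called in 9 of 18 alternatives, among them without mdx S5 (log2 -1.07, adjusted p = 0.018), with adjusted p of 0.0041 to 0.18 over all 18. The 5 neutrophil genes read here also summed highest in IL5Tg, at 83.6 to 129.8 CPM in mdx_IL5Tg, 7.33 to 214 CPM in mdx and 371 to 991 CPM in IL5Tg. Ngp made up most of these sums in IL5Tg, at 336.8 CPM or more there. Of the 4 monocyte genes, Ly6c2 was highest in IL5Tg, at 16.9 to 33.04 CPM in mdx_IL5Tg, 5.02 to 15.96 CPM in mdx and 81.8 to 221 CPM in IL5Tg. F13a1 was highest in mdx, at 2.17 to 9.87 CPM in mdx_IL5Tg, 23.7 to 56.1 CPM in mdx and 2.04 to 4.21 CPM in IL5Tg, and the ranges of the summed list overlapped between mdx (45.8 to 120.3 CPM) and IL5Tg (92.6 to 316 CPM). The part of these cells in the Tnfrsf21 and Tnfrsf22 levels was not tested.

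Tnfrsf26, Tnfrsf22 and Tnfrsf23 stand side by side on the minus strand of chromosome 7, with gaps of 6083 and 16147 bp. They are related in sequence, so reads that fit more than 1 of them may have been shared out among them by the authors' counting. Tnfrsf23, the other decoy receptor of TRAIL, was at 1.84 to 5.12 CPM and was not called in any comparison (adjusted p of 0.24 or more). In these estimates Tnfrsf26 was lowest in mdx and Tnfrsf22 highest in IL5Tg.

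The other receptors with a mean of at least 5 CPM in some group were not called. Tnfrsf10b, which encodes the TRAIL death receptor, was at 16.9, 20.2 and 15.2 CPM in mdx_IL5Tg, 22.03, 20.4 and 25.1 CPM in mdx, and 20.6, 17.2 and 19.0 CPM in IL5Tg. Tnfrsf12a, which encodes Fn14, the receptor of TWEAK that rises in injured muscle, was at 18.0, 20.3 and 16.6 CPM in mdx_IL5Tg, 20.4, 15.0 and 17.7 CPM in mdx, and 13.5, 13.05 and 12.1 CPM in IL5Tg. All libraries with the mdx background were above the IL5Tg ones for Tnfrsf12a, with log2 differences of 0.51 (95% interval 0.14 to 0.87, adjusted p = 0.084) in mdx_IL5Tg and 0.46 (95% interval 0.09 to 0.83, adjusted p = 0.072) in mdx against IL5Tg. Both were called without mdx S5, at log2 0.51 (adjusted p = 0.033) and 0.57 (adjusted p = 0.028). Tnfrsf14, which encodes HVEM, a receptor of LIGHT, was at 13.8, 13.04 and 13.1 CPM in mdx_IL5Tg, 10.1, 13.7 and 10.6 CPM in mdx, and 13.8, 10.6 and 9.80 CPM in IL5Tg. Its groups overlapped, and the largest of its log2 differences was 0.23 (95% interval -0.20 to 0.65). Tnfrsf8 (CD30), Tnfrsf13c, Tnfrsf17, Tnfrsf19 (TROY) and Tnfrsf25 (DR3) were not tested, with at most 9, 7, 2, 15 and 6 counts in any library.

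Among the ligands, Tnfsf14 (chr17:57189492-57194177, minus strand) was at 205, 188 and 205 CPM in mdx_IL5Tg, 129, 168 and 127 CPM in mdx, and 119, 161 and 149.8 CPM in IL5Tg. The mdx_IL5Tg libraries were above all others, and the mdx and IL5Tg groups overlapped. It was 1.41-fold higher in mdx_IL5Tg than in mdx (log2 0.50, SE 0.15, adjusted p = 0.042), and the log2 difference of 0.48 from IL5Tg was not called (SE 0.15, adjusted p = 0.082). The call was lost without mdx_IL5Tg S1, mdx_IL5Tg S3, mdx S4 or mdx S6, with adjusted p of 0.092, 0.065, 0.10 and 0.096, and without normalisation factors, with a log2 of 0.19 and an adjusted p of 0.26. The difference from IL5Tg was called without mdx S5 (log2 0.48, adjusted p = 0.030), and also without both IL5Tg S7 and mdx S5 (log2 0.36, adjusted p = 0.045).

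Tnf (chr17:35199381-35202007, minus strand), the founding member of the family, was not called. It was at 18.7, 17.1 and 22.1 CPM in mdx_IL5Tg, 23.2, 12.2 and 21.9 CPM in mdx, and 15.1, 19.4 and 17.3 CPM in IL5Tg. The groups overlapped, with log2 differences of 0.01 in mdx_IL5Tg against mdx (95% interval -0.50 to 0.53), 0.15 in mdx against IL5Tg (95% interval -0.37 to 0.66) and 0.16 in mdx_IL5Tg against IL5Tg (95% interval -0.36 to 0.68). The intervals do not show that the levels were equal.

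The ligand genes Tnfsf12, Tnfsf13 and Tnfsf10 were highest in mdx, at low levels. Tnfsf12 (chr11:69686250-69695849, minus strand), which encodes TWEAK, was at 2.39, 2.74 and 1.46 CPM in mdx_IL5Tg, 6.26, 7.03 and 4.15 CPM in mdx, and 2.27, 1.59 and 2.87 CPM in IL5Tg. The mdx libraries were above all others. It was 2.64-fold lower in mdx_IL5Tg than in mdx (log2 -1.40, SE 0.33, adjusted p = 0.015) and 2.59-fold higher in mdx than in IL5Tg (log2 1.37, SE 0.34, adjusted p = 0.016). The first call was lost without mdx_IL5Tg S1, mdx_IL5Tg S3 or mdx S4 (adjusted p = 0.065, 0.055 and 0.061). The second was lost without mdx S4, IL5Tg S7 or IL5Tg S8 (adjusted p = 0.053, 0.052 and 0.071), and also without both IL5Tg S7 and mdx S5 (adjusted p = 0.075).

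Tnfsf13 (chr11:69682846-69685784, minus strand), which encodes APRIL, was at 0.711, 0.176 and 0.418 CPM in mdx_IL5Tg, 1.40, 0.837 and 0.892 CPM in mdx, and 0.416, 0.227 and 0.261 CPM in IL5Tg. It was 3.44-fold higher in mdx than in IL5Tg (log2 1.78, SE 0.56, adjusted p = 0.044), and lower in each mdx_IL5Tg library than in mdx without a call (log2 -1.25, adjusted p = 0.11). The call was lost when any of the 6 libraries of mdx and IL5Tg was left out, with adjusted p of 0.051 to 0.14, and also without both IL5Tg S7 and mdx S5 (log2 2.23, adjusted p = 0.060). Tnfsf12 and Tnfsf13 lie 465 bp apart, and the readthrough gene Tnfsfm13 covers 48.3% of the exon bases of Tnfsf12. For Tnfsf13, the shares of exon bases overlapped by Tnfsfm13 and by the antisense RNA Tnfsf13os add up to 73.5%, with bases in both counted for each. Tnfsfm13 was at 0.829, 1.94 and 0.835 CPM in mdx_IL5Tg, 3.93, 4.68 and 2.51 CPM in mdx, and 1.31, 0.519 and 1.15 CPM in IL5Tg, so the split of reads among these 3 genes is an estimate. Tnfsf13os had at most 4 counts in a library.

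Tnfsf10 (chr3:27317028-27342427), which encodes TRAIL, an inducer of cell death through death receptors, was at 1.17, 2.11 and 1.33 CPM in mdx_IL5Tg, 4.84, 3.75 and 4.12 CPM in mdx, and 3.55, 1.98 and 1.901 CPM in IL5Tg. The mdx libraries were above all others, and the mdx_IL5Tg and IL5Tg groups overlapped. It was 2.76-fold lower in mdx_IL5Tg than in mdx (log2 -1.46, SE 0.34, adjusted p = 0.013), a call lost without mdx_IL5Tg S1 or mdx S4 (adjusted p = 0.080 and 0.059). In mdx against IL5Tg the log2 difference of 0.77 was not called (95% interval 0.04 to 1.51, adjusted p = 0.12), and without IL5Tg S7 and mdx S5 it was 1.21 with an adjusted p of 0.046.

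Summed levels of some markers of other cell types were also highest in mdx. The 8 macrophage genes left when Adgre1 and Csf1r are set aside summed to 27.0 to 95.8 CPM in mdx_IL5Tg, 204 to 438 CPM in mdx and 5.81 to 11.8 CPM in IL5Tg. The whole list of 10, which Adgre1 dominates, summed to 2484 to 2773 CPM in mdx_IL5Tg, 1618 to 2066 CPM in mdx and 1589 to 1960 CPM in IL5Tg. The 5 fibroblast genes summed to 504 to 2004 CPM in mdx_IL5Tg, 3021 to 7598 CPM in mdx and 617 to 1419.6 CPM in IL5Tg. The collagen genes Col1a1 and Col3a1 made up 2917 to 7534 CPM of the mdx sums. Dcn alone of the 5 overlapped between mdx and the other groups, with 32.7 CPM in mdx S5 and 59.7 CPM in IL5Tg S9. The 6 dendritic cell genes summed to 2.74 to 6.37 CPM in mdx_IL5Tg, 10.1 to 12.5 CPM in mdx and 5.06 to 9.09 CPM in IL5Tg, and Zbtb46 alone made up 9.04 to 12.1 CPM of the mdx sums. The 6 muscle fibre and satellite cell genes summed to 10.3 to 13.02 CPM in mdx_IL5Tg, 21.97 to 41.7 CPM in mdx and 3.26 to 4.32 CPM in IL5Tg. The 4 endothelial genes summed to 227 to 496 CPM in mdx_IL5Tg, 462 to 621 CPM in mdx and 315 to 422 CPM in IL5Tg. Their mdx range lay above that of IL5Tg and overlapped that of mdx_IL5Tg. The part of these cell types in the levels of Tnfsf12, Tnfsf13 and Tnfsf10 was not tested.

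**Figure D4:**
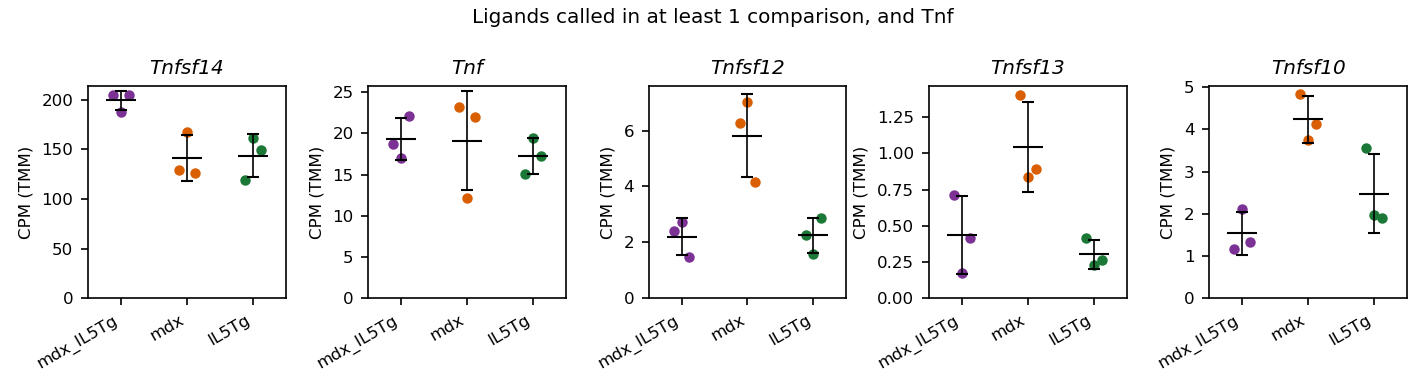
TMM-normalised CPM of Tnf and of each ligand gene called in at least 1 comparison, with 1 point per library, the groups in the order mdx_IL5Tg, mdx and IL5Tg, and bars for the mean and SD of 3 libraries. Tnfsf14 is highest in mdx_IL5Tg, the Tnf groups overlap, and Tnfsf12, Tnfsf13 and Tnfsf10 are highest in mdx.

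The remaining tested ligands were at under 2 CPM in every library and were not called. Tnfsf9, which encodes the ligand of CD137, was at 0.536 to 1.94 CPM, Tnfsf8, which encodes the ligand of CD30, at 0.134 to 0.691 CPM, and Tnfsf15, which encodes the DR3 ligand TL1A, at 0.0755 to 0.576 CPM. The genes of the other 4 ligands were not tested. Tnfsf18, which encodes the GITR ligand, had at most 2 counts and was at 0 in 5 libraries, and Tnfsf4, which encodes the OX40 ligand, had at most 6. Tnfsf13b, which encodes BAFF, had at most 17 counts, and Tnfsf11 at most 20. For Tnfrsf18, Tnfrsf9 and Tnfrsf13b, the ligand genes named here, Tnfsf18, Tnfsf9, Tnfsf13b and Tnfsf13, were thus at under 2 CPM in every library. The readthrough gene Tnfsfm13, which overlaps Tnfsf13, was at 0.519 to 4.68 CPM.

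Both classes held members that went each way. The median log2 change of the 8 ligands was -1.01 in mdx_IL5Tg against mdx, 0.49 in mdx against IL5Tg and 0.11 in mdx_IL5Tg against IL5Tg. That of the 15 receptors was 0.19, -0.19 and 0.23 in the same comparisons, and that of all genes tested -0.13, 0.01 and -0.05. In mdx_IL5Tg against mdx, 3 ligands had a positive and 5 a negative log2 change, and 10 receptors a positive and 5 a negative one. In mdx against IL5Tg, 7 ligands were positive and 1 negative, and 7 receptors positive and 8 negative. In mdx_IL5Tg against IL5Tg, 5 ligands were positive and 3 negative, and 8 receptors positive and 7 negative. No overlap between libraries was found for 5 ligands and 7 receptors in mdx_IL5Tg against mdx, where 18.8% of all genes had every mdx_IL5Tg library above and 23.2% below every mdx library, 42.0% in all. It was found for 3 ligands and 9 receptors in mdx against IL5Tg, with 22.2% of all genes above, 19.7% below and 41.9% in all. In mdx_IL5Tg against IL5Tg it was found for 1 ligand and 7 receptors, with 19.4% of all genes above, 16.4% below and 35.9% in all.

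A list of 32 genes that act in signalling from these receptors was read beside them, and all were tested. In mdx against IL5Tg 6 were higher and 3 lower, in mdx_IL5Tg against IL5Tg 5 were higher and none lower, and in mdx_IL5Tg against mdx 1 was higher and 4 were lower. The called share of the list was 28.1% in mdx against IL5Tg, against 20.8% of all genes tested. It was 15.6% in mdx_IL5Tg against IL5Tg, against 7.22% of all genes, and 15.6% in mdx_IL5Tg against mdx, below the 21.6% of all genes. The list's median log2 changes were 0.25, 0.02 and 0.01 in the order in which the comparisons are named here. Those higher in mdx than in IL5Tg were led by Tnip1, whose product works with the ubiquitin-editing enzyme A20 to restrain NF-kB, by Traf3, which encodes an adaptor that holds back non-canonical NF-kB signalling, and by Birc3, which encodes a ubiquitin ligase of the receptor complexes.

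Tnip1 was at 149, 135 and 119.9 CPM in mdx_IL5Tg, 179.8, 247 and 179.9 CPM in mdx, and 66.9, 80.3 and 75.6 CPM in IL5Tg. The groups did not overlap, with mdx highest and IL5Tg lowest. Its log2 changes were 1.44 in mdx against IL5Tg (SE 0.16, adjusted p = 0.00022), 0.86 in mdx_IL5Tg against IL5Tg (SE 0.16, adjusted p = 0.017) and -0.59 in mdx_IL5Tg against mdx (SE 0.16, adjusted p = 0.024). The last call was lost when any library but mdx S5 was left out (adjusted p of 0.059 to 0.16), and the one of 0.86 without mdx_IL5Tg S1, mdx_IL5Tg S2, IL5Tg S7 or IL5Tg S9 (0.054 to 0.098). Birc3 had the same order of groups, at 448 ± 38.4 CPM in mdx_IL5Tg, 587 ± 12.7 CPM in mdx and 300.5 ± 29.4 CPM in IL5Tg (SD, n = 3 each). It was called in all 3 comparisons, at log2 0.97 in mdx against IL5Tg, 0.58 in mdx_IL5Tg against IL5Tg and -0.39 in mdx_IL5Tg against mdx (adjusted p = 0.00064, 0.030 and 0.048). The first of the Birc3 calls was kept under all 18 alternatives, the second was lost without mdx_IL5Tg S1, mdx_IL5Tg S2, IL5Tg S7 or IL5Tg S9 (adjusted p of 0.067 to 0.14), and the third without any library but mdx S5 (0.10 to 0.32). Traf3 averaged 233 ± 20.5 CPM in mdx_IL5Tg, 293 ± 23.6 CPM in mdx and 145 ± 8.67 CPM in IL5Tg, and was called higher in mdx (log2 1.02, adjusted p = 0.00045) and in mdx_IL5Tg (log2 0.69, adjusted p = 0.016) than in IL5Tg. The second of these was lost without mdx_IL5Tg S1 (adjusted p = 0.093). Traf1, which encodes an adaptor that binds Traf2 and is itself induced by NF-kB, was higher in mdx than in IL5Tg (log2 0.79, adjusted p = 0.0080) and lower in mdx_IL5Tg than in mdx (log2 -0.69, adjusted p = 0.014). These calls were lost without IL5Tg S9 (adjusted p = 0.058) for the first, and without mdx_IL5Tg S1, S2 or S3 (adjusted p = 0.11, 0.054 and 0.074) for the second. The macrophage genes without Adgre1 and Csf1r, given above, had the group order of Tnip1, Birc3 and Traf3, with mdx highest and IL5Tg lowest. The whole list of 10, which Adgre1 dominates, was instead highest in mdx_IL5Tg. It summed to 2484 to 2773 CPM in mdx_IL5Tg, 1618 to 2066 CPM in mdx and 1589 to 1960 CPM in IL5Tg. The part of macrophages in the levels of Tnip1, Birc3, Traf3 and Traf1 was not tested.

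Tnfaip3, the gene of A20, was at 1098, 876 and 981 CPM in mdx_IL5Tg, 669, 845 and 665 CPM in mdx, and 666, 479 and 645 CPM in IL5Tg. The mdx_IL5Tg libraries were above all others, and the gene was called higher than in IL5Tg (log2 0.72, SE 0.17, adjusted p = 0.035). That call was lost without mdx_IL5Tg S1, mdx_IL5Tg S2, IL5Tg S7, IL5Tg S8 or IL5Tg S9 (adjusted p of 0.060 to 0.15). Against mdx, the Tnfaip3 log2 change of 0.44 was not called (adjusted p = 0.085), but was called in 6 of 18 alternatives. Among these was the fit without IL5Tg S7 and mdx S5 (log2 0.57, adjusted p = 0.026). Over all 18 its log2 ranged from 0.13 to 0.60. The adaptor gene Traf2, named after its values were seen, was also higher in mdx_IL5Tg than in IL5Tg (log2 0.56, adjusted p = 0.040), a call lost without mdx_IL5Tg S1, mdx_IL5Tg S2, mdx S6 or any IL5Tg library (adjusted p of 0.051 to 0.17). Traf2 was also higher in mdx than in IL5Tg (log2 0.55, adjusted p = 0.020), a call lost without mdx_IL5Tg S1, mdx_IL5Tg S2 or any IL5Tg library (adjusted p of 0.053 to 0.099). Between mdx_IL5Tg and mdx its log2 difference was 0.01 (95% interval -0.29 to 0.32). Rnf31, which encodes the catalytic subunit of the linear ubiquitin ligase complex, was lower in mdx_IL5Tg than in mdx (log2 -0.56, adjusted p = 0.033), a call lost without any library but mdx S5 (adjusted p of 0.053 to 0.16). It was also called higher in mdx than in IL5Tg (log2 0.58, adjusted p = 0.031), a call lost without any library but mdx S4 and mdx S5 (adjusted p of 0.056 to 0.13). Tab3, which encodes an adaptor of the kinase TAK1, had a log2 of 0.60 in mdx_IL5Tg against mdx (adjusted p = 0.039) and -0.87 in mdx against IL5Tg (adjusted p = 0.0080). The first of these was lost without mdx_IL5Tg S3 (adjusted p = 0.058) and without normalisation factors (log2 0.26, adjusted p = 0.33). The IKK complex genes Ikbkg and Chuk were lower in mdx than in IL5Tg, at log2 -0.70 and -0.47 (adjusted p = 0.020 and 0.017). The Ikbkg call was lost without mdx S4, mdx S6, IL5Tg S8 or IL5Tg S9 (adjusted p of 0.052 to 0.068). The Chuk call was lost with library totals alone (log2 -0.36, adjusted p = 0.066) and with no filter on low counts (log2 -0.45, adjusted p = 0.070). With library totals alone, Tnfaip3, Birc3 and Traf2 were not called in mdx_IL5Tg against IL5Tg (adjusted p = 0.070, 0.081 and 0.084). In mdx_IL5Tg against mdx, Tnip1, Birc3 and Rnf31 were not called in a fit of only the groups compared (adjusted p = 0.080, 0.11 and 0.11), and neither were Birc3 and Rnf31 with RLE factors (adjusted p = 0.098 and 0.0503) nor Birc3 with DESeq2 or no filter (adjusted p = 0.060 and 0.12). Traf2 and Rnf31 were not called in mdx against IL5Tg when IL5Tg S7 and mdx S5 were both left out (adjusted p = 0.059 and 0.079), nor was Rnf31 in a fit of those groups alone (adjusted p = 0.061).

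**Figure D5:**
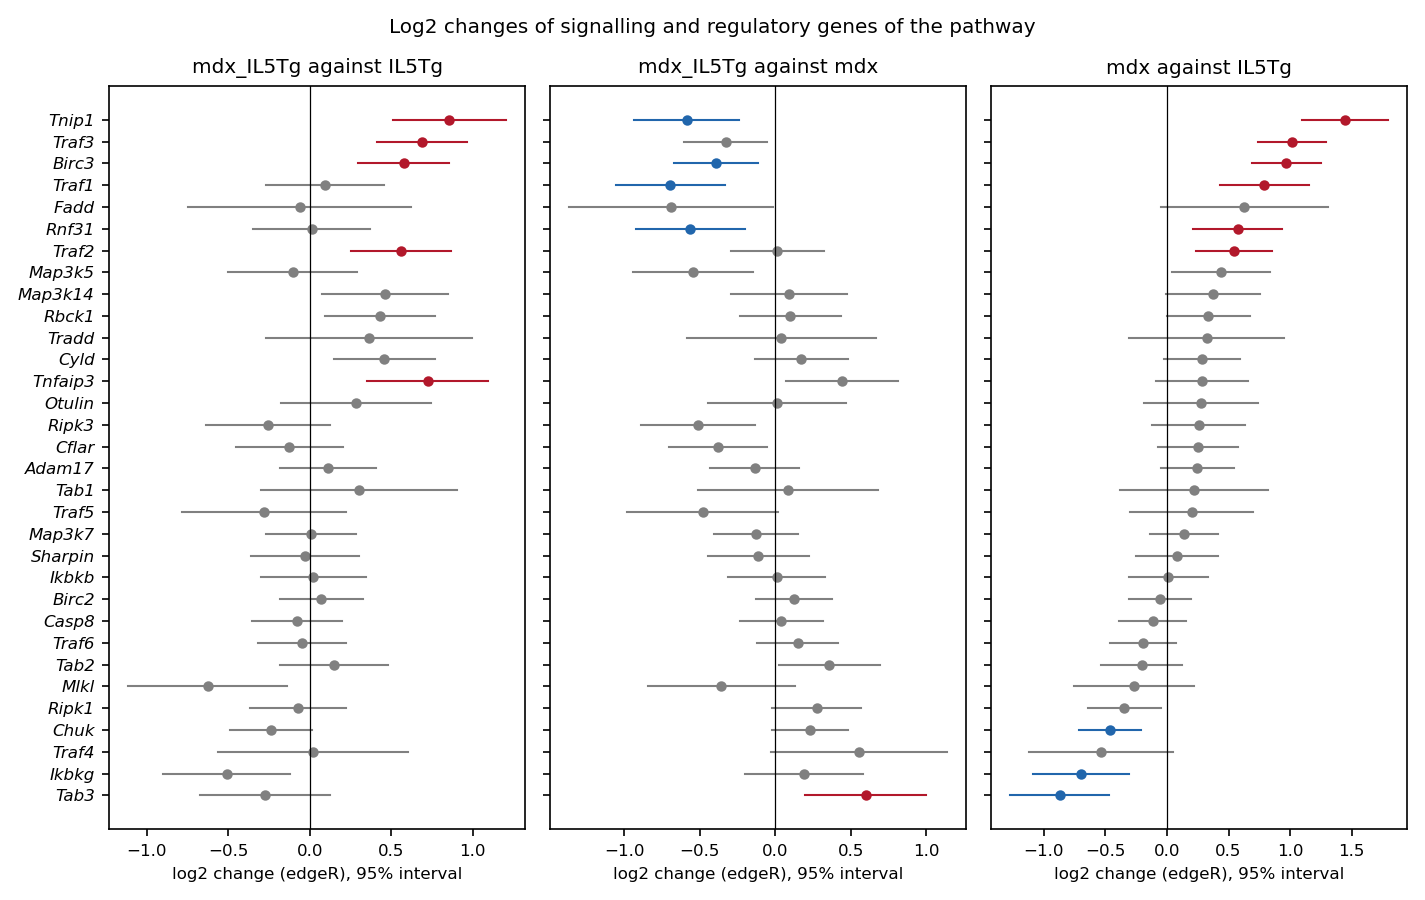
Log2 change of each of the 32 signalling genes in the comparisons mdx_IL5Tg against IL5Tg, mdx_IL5Tg against mdx and mdx against IL5Tg, from left to right, with bars for the 95% confidence interval and red for higher, blue for lower and grey for not called. Tnip1, Birc3 and Traf3 lead the rises in mdx against IL5Tg, and Tab3 has the largest fall there.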

How the data were processed

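Gene-level expected counts (RSEM estimates, deposited by the authors as one table) were used for 9 libraries made from total RNA with a low-input kit. Per the submitters' processing notes, reads were handled with RSEM 1.3.0, STAR 2.5.3, cutadapt 2.10 and limma on build mm10. The annotation release and the strand setting were "not given in the sources used here". By its model RSEM divides reads among similar and overlapping genes, so estimates of paralogs are uncertain. Of the values, 6.03% were not whole, and all were rounded. Columns carry S numbers that the labels lack, so each was tied to its group alone.

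In R 4.3.3, edgeR 4.0.16 kept 15886 of 54146 genes (filterByExpr, minimum count 10), scaled them by TMM and fitted all 9 libraries together with robust quasi-likelihood. P-values were adjusted by Benjamini-Hochberg over all tested genes, with a threshold of 0.05. Standard errors were derived from the F statistic. The scripts were tested on simulated data. P-values set each group difference against the spread between these libraries. Within groups, no pair of libraries differed by less than sampling noise (chi-square per degree of freedom of 26.7 to 197), so each counts once. The alternatives were DESeq2 1.42.0, RLE factors, library totals, voom of limma 3.58.1 plain or with sample quality weights, no and stricter filters (at least 50 counts in at least 3 libraries), only the groups compared, and libraries left out.

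Named are members called in a comparison, other tested members with a mean of at least 5 CPM in a group, and the called signalling genes with the 4 largest rises and 4 largest falls in a comparison. Members and lists were chosen with earlier results of these data known. Gene positions, strands and exon lengths (merged exons) are from GENCODE release M21 on GRCm38, which held all 33 members. Promoter windows are from RefSeq on GRCm38.p6. The marker Retnlg was not used here, and 1 listed B cell marker is not reported here.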

Additional observations from a re-analysis of the deposited data

How the results depend on the processing

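No paired analysis was possible because the columns carry no replicate number of the labels. For members, 915 log2 changes were recomputed. Of 359 for called changes, 47 lost the call and 0 changed sign. Of 556 for changes not called, 36 gained a call and 47 changed sign with a call in neither. For single signalling genes and for family genes with other symbols, the same alternatives were chosen after seeing the data, and the calls that end without a library are given beside those genes. The Ltb call in mdx_IL5Tg against mdx was also lost with quality weights and with only the groups compared, the Cd40 and Ngfr calls without IL5Tg S7 and mdx S5, and the Cd40 call with voom. The cause of each move was not tested. With library totals alone the median log2 change of all genes was -0.27 in mdx_IL5Tg against IL5Tg, -0.46 in mdx_IL5Tg against mdx and 0.12 in mdx against IL5Tg, in place of -0.05, -0.13 and 0.01. Calls over all genes were then 311 higher and 981 lower, 746 and 4007, and 2408 and 998, in place of 691 and 456, 1603 and 1830, and 1874 and 1424.

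For settings other than 1 library left out, the larger moves of these counts are listed, and smaller moves are mostly left out. In mdx_IL5Tg against IL5Tg, ligands called higher numbered 0, and 1 with voom quality weights or without IL5Tg S7 and mdx S5. Receptors called higher numbered 2, but 1 with library totals and 4 with quality weights, and with DESeq2 Tnfrsf12a was added. Those lower numbered 2, but 1 with RLE factors. They numbered up to 3 where Tnfrsf22 was added, as with DESeq2, library totals or voom. Signalling genes called higher numbered 5, but 2 with library totals and 8 with quality weights. Those lower numbered 0, but 1 with DESeq2, library totals or without IL5Tg S7 and mdx S5, and 2 with quality weights. Leaving out 1 library gave 0 to 1 ligands higher, 0 lower, 0 to 3 receptors higher, 0 to 3 lower, 0 to 7 signalling genes higher and 0 lower.

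In mdx_IL5Tg against mdx, ligands called higher numbered 1, but 0 with library totals or the stricter filter, and those lower 2, but 4 with quality weights. Receptors called lower numbered 1, but 2 with library totals or without IL5Tg S7 and mdx S5, and 4 with quality weights. Signalling genes called higher numbered 1, but 0 with library totals, 2 with DESeq2 or only the groups compared, and 3 with quality weights or without IL5Tg S7 and mdx S5. Those lower numbered 4, but 1 with only the groups compared, 2 with RLE factors, 7 with the stricter filter, 8 with quality weights and 13 with library totals. Leaving out 1 library gave 0 to 1 ligands higher, 0 to 2 lower, 4 to 5 receptors higher, 1 lower, 0 to 4 signalling genes higher and 0 to 5 lower.

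In mdx against IL5Tg, ligands called higher numbered 2, but 1 with voom, the stricter filter or without IL5Tg S7 and mdx S5. Under the stricter filter Tnfsf13 was not tested. Without IL5Tg S7 and mdx S5 the calls of both Tnfsf12 and Tnfsf13 were lost, and the ligand called was Tnfsf10. Receptors called higher numbered 0, but 1 with library totals, the stricter filter or without IL5Tg S7 and mdx S5, and 3 with quality weights. Signalling genes called higher numbered 6, but 10 with library totals. Leaving out 1 library gave 0 to 2 ligands higher, 0 lower, 0 to 1 receptors higher, 5 to 6 lower, 3 to 6 signalling genes higher and 2 to 4 lower. Groups of 3 libraries and members at under 2 CPM limit what could be called.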

Other observations

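The family also holds genes with symbols outside the TNFSF and TNFRSF series, and 8 of the 14 listed were tested. In mdx against IL5Tg 5 of them were called higher, in mdx_IL5Tg against mdx 3 were lower, and in mdx_IL5Tg against IL5Tg 1 was higher, against 11.8%, 11.5% and 4.35% of all genes tested. The 5 include Ngfr, which passed the filter on low counts only with the mdx libraries. Fas, which encodes a death-domain receptor, was at 47.4, 49.6 and 46.4 CPM in mdx_IL5Tg, 84.4, 85.2 and 80.4 CPM in mdx, and 32.0, 28.9 and 30.3 CPM in IL5Tg. The Fas groups did not overlap, with log2 changes of -0.80 in mdx_IL5Tg against mdx, 0.65 in mdx_IL5Tg against IL5Tg and 1.46 in mdx against IL5Tg (edgeR adjusted p = 0.00098, 0.012 and 1.9e-05). The call of 0.65 was lost without mdx_IL5Tg S1 (log2 0.71, edgeR adjusted p = 0.056).

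Ltbr, which encodes the lymphotoxin beta receptor that also binds LIGHT, was at 8.45, 8.59 and 4.41 CPM in mdx_IL5Tg, 17.9, 14.7 and 15.0 CPM in mdx, and 7.94, 6.13 and 7.46 CPM in IL5Tg. Its log2 change was -1.15 in mdx_IL5Tg against mdx and 1.14 in mdx against IL5Tg (edgeR adjusted p = 0.011 for each), calls lost without mdx S4 (edgeR adjusted p = 0.057) and without IL5Tg S8 (edgeR adjusted p = 0.052). Ltb, which encodes lymphotoxin beta, was at 29.0, 22.005 and 18.4 CPM in mdx_IL5Tg, 38.8, 71.4 and 29.3 CPM in mdx, and 15.0, 10.5 and 9.58 CPM in IL5Tg. It was called lower in mdx_IL5Tg than in mdx (log2 -1.01, edgeR adjusted p = 0.042) and higher in mdx than in IL5Tg (log2 1.99, edgeR adjusted p = 0.0021). The first of the Ltb calls was lost without any library but mdx S6 (edgeR adjusted p of 0.069 to 0.16), with a log2 of -0.55 without mdx S5, and the second was kept under all 18 alternatives. Cd40 and Ngfr, at under 3 CPM in every library, were called higher in mdx than in IL5Tg. Ngfr had 2, 30 and 12 counts in mdx_IL5Tg, 80, 55 and 43 in mdx, and 2, 4 and 5 in IL5Tg. It passed the filter on low counts only with the mdx libraries, where it is high, so that filter favoured its call. The Ngfr call was lost without IL5Tg S7 or IL5Tg S8 (edgeR adjusted p = 0.056 and 0.0504), and the Cd40 call without mdx_IL5Tg S1, mdx S4, mdx S5 or any IL5Tg library (edgeR adjusted p of 0.053 to 0.12). Relt, a receptor gene at 24.3 to 43.3 CPM, was not called in any comparison. The fibroblast genes (504 to 2004 CPM in mdx_IL5Tg, 3021 to 7598 CPM in mdx and 617 to 1419.6 CPM in IL5Tg), the macrophage genes without Adgre1 and Csf1r (27.0 to 95.8 CPM in mdx_IL5Tg, 204 to 438 CPM in mdx and 5.81 to 11.8 CPM in IL5Tg) and the muscle genes (10.3 to 13.02 CPM in mdx_IL5Tg, 21.97 to 41.7 CPM in mdx and 3.26 to 4.32 CPM in IL5Tg) were also highest in mdx. The whole list of 10 macrophage genes, which Adgre1 dominates, was instead highest in mdx_IL5Tg. It summed to 2484 to 2773 CPM in mdx_IL5Tg, 1618 to 2066 CPM in mdx and 1589 to 1960 CPM in IL5Tg. Col1a1 and Col3a1 made up most of the fibroblast sums in mdx. The part of fibroblasts, macrophages and muscle cells in the levels of Fas, Ltbr, Ltb, Cd40 and Ngfr was not tested.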
